A study of Mus musculus with 22 samples.

Results

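The genes described here encode 3 calcium-binding proteins by which neurons are commonly classified: Calb1 (calbindin), Calb2 (calretinin) and Pvalb (parvalbumin). They were chosen by name, as 3 of the 20129 genes that the arrays name through RefSeq, and all 3 were among the 16691 such genes tested. The samples were brain fractions of male C57BL/6J mice without any treatment, stated as 7 days old in the sample titles and as 3 days in the age field. In Transcriptome Tomography a whole brain is sliced from end to end in one direction and the slices are pooled into slabs. Mouse 1 gave 10 coronal fractions, mouse 2 gave 6 horizontal fractions and mouse 3 gave 6 sagittal fractions, each measured on 1 array. Coronal fraction 10 joined slabs 10 and 11, sagittal fraction 1 joined slabs 1 and 2, and sagittal fraction 6 joined slabs 7 to 9. Each direction was therefore cut from 1 animal, and direction and animal cannot be told apart.

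Calbindin, calretinin and parvalbumin are members of the EF-hand family, which hold calcium ions in a helix-loop-helix pocket. They buffer calcium in the cytoplasm, and such buffers shape how a calcium signal rises and decays after an action potential. In the cerebral cortex and hippocampus they mark largely separate classes of GABAergic interneurons. None of the 3 is limited to interneurons: Purkinje cells of the cerebellum contain calbindin and parvalbumin, and granule cells of the cerebellum and periglomerular cells of the olfactory bulb contain calretinin. Parvalbumin is also a protein of fast skeletal muscle and of some sensory neurons. In rodents cortical parvalbumin appears late, in the weeks after birth.

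The expression density of a gene in a fraction is given as its level, the log2 of the array's processed intensity minus the log2 of the 75th percentile of that array. A level of 0 is thus the brightness of the 75th percentile probe, and a difference of 1 is a doubling of intensity relative to it. Levels of different probes are not compared with each other, since each probe has its own efficiency. No fraction was measured more than once. Spots repeated on the same array gave an error for probes of like brightness, which is a lower limit because it leaves out the preparation of the RNA. Fractions were called different beyond spot error where their levels differed by more than 1.96 times the combined spot SD. In these bulk fractions, fewer cells of a type and less RNA per cell cannot be told apart.

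The labels do not say at which end a series began. Hoxb5, a gene of the hindbrain and spinal cord, was highest in coronal fraction 1, and Cdhr1, a gene of olfactory bulb output neurons, was highest in coronal fraction 10. On 7 arrays the slope of the added spike-in transcripts was outside the accepted range (coronal fractions 1 and 2, horizontal fractions 1 to 3, sagittal fractions 1 and 3). The number of probes well above background was between 29605 and 41965 per array. All 6 horizontal arrays lay on 1 slide and all 6 sagittal arrays on another, which also held coronal fractions 9 and 10, while coronal fraction 1 and fractions 3 to 8 shared a slide and fraction 2 was on a slide of its own among these samples. The neuronal origin of the RNA was visible in every fraction: Gad1 and Gad2, the enzymes of GABA synthesis, and Slc32a1, the vesicular GABA transporter, were well above background on all 22 arrays.

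Each gene was tested along each direction by a limma fit of a straight and a curved term in slab position to all 22 arrays, with Benjamini-Hochberg adjustment over 39621 probes and a threshold of 0.05. The change from end to end is the straight term on the log2 scale, and a gene that passed is said to rise or fall by the sign of that term. That sign is used also where the curved term carried most of the call, so a rise or fall need not run from end to end. Along the coronal series 2 of the 3 genes passed, Calb1 and Pvalb, and both fell with fraction number. Among all probes tested 19.8% passed in this direction, 7.43% falling and 12.4% rising. Along the horizontal series none of the 3 genes passed (6.57% of all probes did, 3.94% rising and 2.63% falling), and none passed from side to side of the sagittal series (10.2% of all probes, 7.77% rising and 2.44% falling). None passed for the sagittal middle against the sides (0.0303% of all probes, 0.0202% with a positive and 0.0101% with a negative term) or between the means of the 3 series (0.00757% of all probes).

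**Figure D1:**
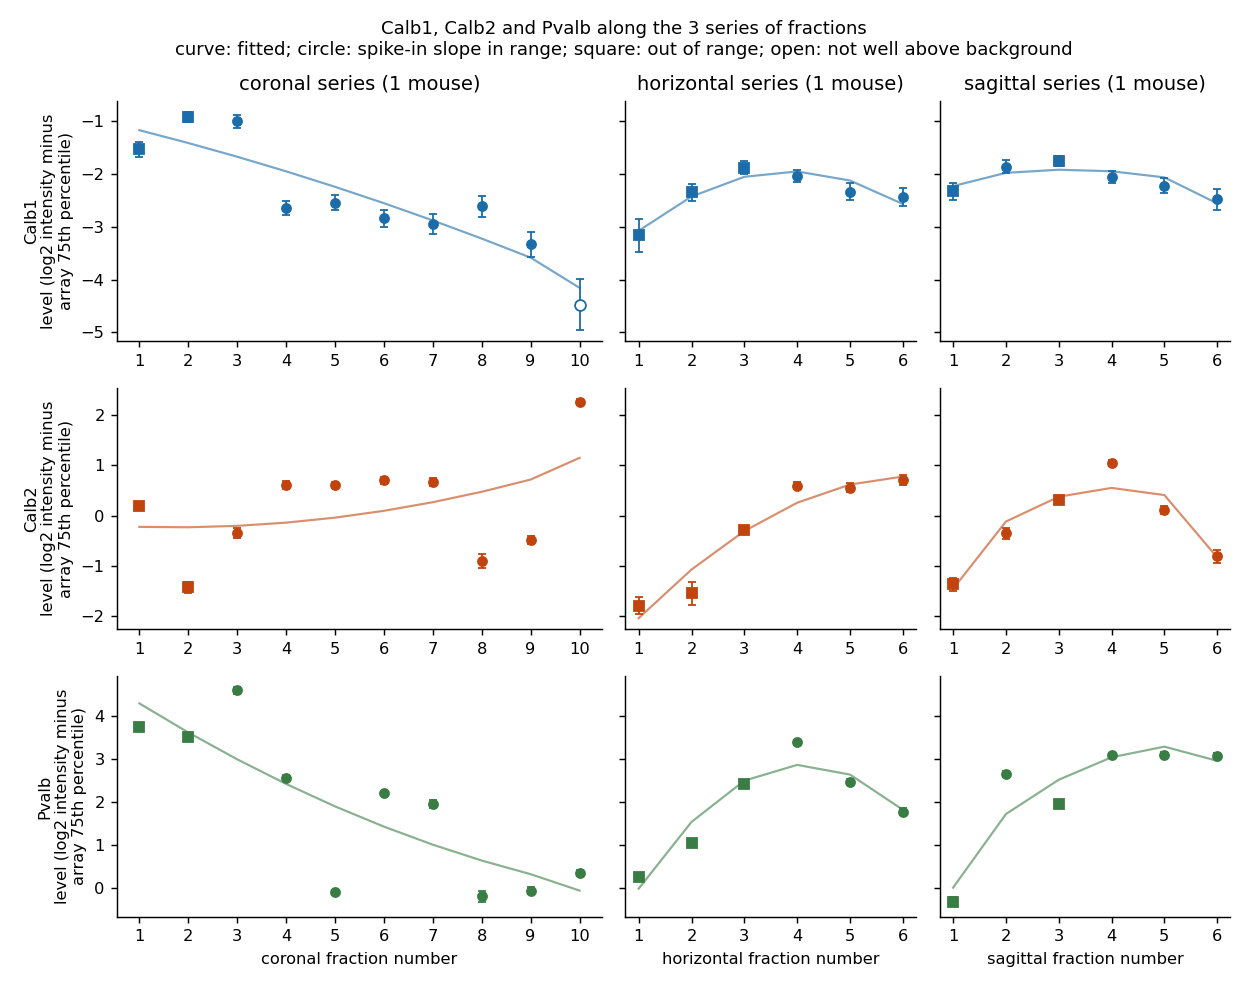
Level (log2 intensity minus the array's 75th percentile) of Calb1, Calb2 and Pvalb against fraction number in the coronal, horizontal and sagittal series, 1 array per point. Error bars are the spot SD, lines join the fitted values, squares are arrays with the spike-in slope out of range, and the open point (Calb1, coronal fraction 10) was not well above background. Calb1 and Pvalb are high in coronal fractions 1 to 3, and Calb2 is highest in coronal fraction 10.

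Calb1 was measured by 1 probe (A_55_P2181602, transcript NM_009788). Its level was -1.54, -0.92 and -1.01 in coronal fractions 1 to 3. In coronal fractions 4 to 8 it was -2.65, -2.54, -2.84, -2.95 and -2.62, and in fractions 9 and 10 it was -3.33 and -4.47. The first 3 fractions stood above all later ones, and the step from fraction 3 to fraction 4 alone was 1.64 (3.12-fold). This split was chosen after the values had been seen, and no share of all probes with such a split is given. Fraction 10 was the only one of the 22 in which Calb1 was not well above background, and its spot SD was 0.49. The difference between fractions 2 and 10 was 11.8-fold in the levels as read, and its true size is uncertain.

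In the fit Calb1 fell by 2.97 ± 0.41 (SE) from coronal fraction 1 to fraction 10, with an adjusted p of 0.00141 in limma. The fitted range of Calb1 was larger than that of 90.5% of all probes tested. On the slide that held coronal fractions 1 and 3 to 8, fractions 1 and 3 also stood above the others (-1.54 and -1.01 against -2.95 to -2.54). The call was lost when the coronal arrays were fitted alone (adjusted p = 0.0538), with a change of -2.97 ± 0.51 (SE). It was also lost when only arrays with the slope in range were used (adjusted p = 0.0533), which leaves out coronal fractions 1 and 2. The fitted range over the arrays kept was 2.44, beside 2.98 with all arrays. The straight term, scaled to the whole series, was -3.06 ± 0.91 (SE). The size of the fall depended on the background correction: with normexp Calb1 fell by 1.37 (adjusted p = 0.00723).

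Along the horizontal series the level of Calb1 was -3.17, -2.35 and -1.89 in fractions 1 to 3 and -2.04, -2.33 and -2.44 in fractions 4 to 6. Fraction 3 was the highest and fraction 1 the lowest, 2.43-fold apart, and only fraction 1 was separated from its neighbour in the order of levels beyond spot error. Fraction 3 also differed beyond spot error from fractions 2, 5 and 6, which were not next to it in that order. The change from end to end was 0.51 ± 0.48, and the test was not passed (adjusted p = 0.195 in limma). Quantile normalization and leaving the arrays unscaled brought the adjusted p to 0.0171 and 0.0428, so that whether Calb1 changed along this direction depended on the scaling.

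Along the sagittal series the level of Calb1 was -2.33, -1.86, -1.76, -2.06, -2.22 and -2.48 in fractions 1 to 6. The whole range was 0.72, a 1.65-fold difference between fractions 3 and 6, and no pair of neighbours in the order of levels differed beyond spot error. Fractions 3 and 6 themselves, with a spot SD of 0.09 and 0.20, did differ beyond it. From side to side the change was -0.33 ± 0.51 (adjusted p = 0.707 in limma). This was the smallest range among the 9 combinations of gene and direction.

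Pvalb was measured by 2 probes of transcript NM_013645, and the brighter one (A_55_P2114437) was well above background on all 22 arrays. Its level was 3.75, 3.53 and 4.61 in coronal fractions 1 to 3 and 2.57 in fraction 4. In fraction 5 it was -0.09, in fractions 6 and 7 it was 2.21 and 1.95, and in fractions 8 to 10 it was -0.18, -0.05 and 0.35. Fractions 1 to 3 stood above all later fractions, with means 2.99 apart (7.97-fold). This split, too, was chosen after the values had been seen, and no share of all probes with it is given. The highest and the lowest coronal fractions, 3 and 8, were 27.6-fold apart. The order of levels was not a smooth decline, since fraction 5 lay with fractions 8 and 9 at the bottom and did not differ from them beyond spot error.

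In the fit Pvalb fell by 4.39 ± 0.90 (SE) along the coronal series, with an adjusted p of 0.0120 in limma. Its fitted range was larger than that of 98.1% of all probes tested. The scatter of Pvalb around the fitted curve was wide, with a residual SD of 0.93, and the largest deviation was that of fraction 5, 2.00 below the curve. The call was lost when the coronal arrays were fitted alone (adjusted p = 0.0979), with a change of -4.39 ± 1.06 (SE). It was also lost with only the arrays whose slope was in range (adjusted p = 0.0983), where coronal fractions 1 and 2 are missing. There the fitted range over the arrays kept was 3.74, beside 4.35 with all arrays. The straight term, scaled to the whole series, was -6.54 ± 1.92 (SE).

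The dimmer probe of Pvalb (A_55_P2059040) followed the brighter one, with a Pearson r of 0.97 over the 22 fractions, 0.99 over the coronal ones, 0.94 over the horizontal ones and 0.99 over the sagittal ones. Both probes were read from the same labelled samples, so they share every error except that of the spot. Along the coronal series the dimmer probe fell by 5.82 ± 1.07 (adjusted p = 0.00719 in limma). In horizontal fraction 1 its spot did not stand well above background. Along the horizontal series its adjusted p was 0.0538, against 0.136 for the brighter probe.

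**Figure D2:**
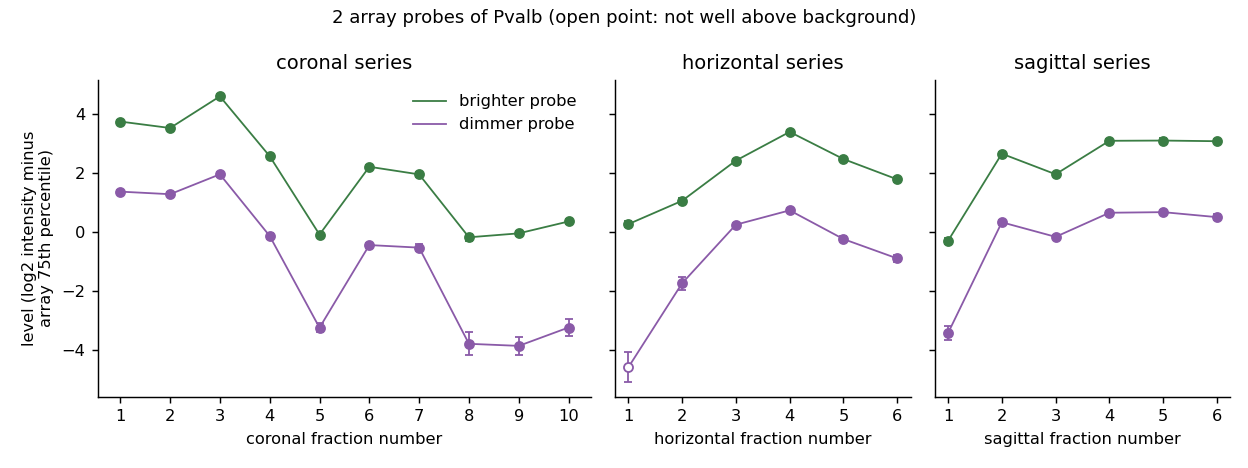
Level (log2 intensity minus the array's 75th percentile) of the brighter and the dimmer probe of Pvalb against fraction number in the 3 series, 1 array per point, with the spot SD as error bars and an open point where the probe was not well above background. Both probes drop in coronal fraction 5 and in sagittal fraction 1 and peak in coronal fraction 3 and horizontal fraction 4. The offset between the probes is not a difference in expression.

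The drop of Pvalb in coronal fraction 5 was singled out after its values had been seen. The brighter probe lay 2.30 below the nearer of fractions 4 and 6 (4.94-fold), and the dimmer probe 2.81 below (7.00-fold). Of all probes tested, 7 had a drop there at least as large as that of the brighter probe, and 2 of these were the probes of Pvalb. The other 5 probes, those of Klk1, Pitx1 and Hmx2 and 2 without a RefSeq gene, were not well above background in fraction 5, while both probes of Pvalb were. The array of fraction 5 shared its slide with fractions 4 and 6 and had its spike-in slope in range, but it had the highest slope of the 22 arrays (1.07), the lowest signal of the dim spike-in probe a107 (2.86) and the fewest probes well above background (29605). A drop of any size below both neighbours was seen there in 31.3% of all probes. The part of this array in the drop was not tested. The mean level of the 7 Purkinje cell markers measured here was 1.06, 0.38 and 0.44 in fractions 4, 5 and 6, and Calb1 was -2.65, -2.54 and -2.84, so neither had a drop of this kind.

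Along the horizontal series the level of Pvalb was 0.26, 1.06 and 2.42 in fractions 1 to 3 and 3.40, 2.47 and 1.78 in fractions 4 to 6. Fraction 4 was the highest, 8.79-fold above fraction 1, and fractions 3 and 5 on its sides did not differ from each other beyond spot error. The change from end to end was 1.83 ± 1.06 and the test was not passed (adjusted p = 0.136 in limma).

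Along the sagittal series Pvalb was at -0.30 in fraction 1, at 2.66 and 1.96 in fractions 2 and 3, and at 3.10, 3.10 and 3.08 in fractions 4 to 6. Fraction 1 lay 2.26 below the next lowest fraction (4.80-fold), and fractions 4, 5 and 6 did not differ from one another beyond spot error. Of the 39621 probes 34, this one included, stood at least as far below the other sagittal fractions in fraction 1, which was chosen for this count after the values had been seen. A level below all other sagittal fractions, by any amount, was seen there in 17.2% of all probes. The change from side to side was 2.93 ± 1.12, which did not pass (adjusted p = 0.120 in limma). Sagittal fraction 1 was an array with the slope out of range. Over the 6 sagittal arrays the level of Pvalb and that of the dim spike-in probe a107, which was bright on such arrays, had an r of -0.91, and the part of array quality in this low value was not tested.

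Calb2 was measured by 1 probe (A_52_P556433, transcript NM_007586), well above background on all 22 arrays. Its level was 0.19, -1.43 and -0.35 in coronal fractions 1 to 3. In coronal fractions 4 to 7 it was even, at 0.60, 0.61, 0.70 and 0.67, and these did not differ beyond spot error. In fractions 8 and 9 it was -0.90 and -0.49, and in fraction 10 it was 2.25. Fraction 10 was the highest of all 22 fractions, 1.56 above the next coronal fraction (2.94-fold) and 2.75 above its neighbour, fraction 9 (6.71-fold). The plateau of fractions 4 to 7 lay 1.24 above the mean of fractions 1 to 3, 8 and 9 (2.37-fold), without overlap. These groups were chosen after the values had been seen, so the lack of overlap followed from the choice.

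This profile with a plateau, a trough and a peak was poorly described by a curve with 2 terms. The change from end to end was 1.35 ± 0.78, the residual SD was 0.81, and the coronal test was not passed (adjusted p = 0.319 in limma). A miss in this test does not show that Calb2 was even along the brain. Of all probes tested, 131 with that of Calb2 among them stood at least as far above the other coronal fractions in fraction 10, or 0.331%, and fraction 10 was chosen for this count after the values had been seen. In 11.8% of all probes fraction 10 was above the other coronal fractions by any amount.

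Along the horizontal series the level of Calb2 was -1.80, -1.55 and -0.29 in fractions 1 to 3 and 0.60, 0.56 and 0.71 in fractions 4 to 6. The later 3 fractions lay above the first 3 without overlap, with means 1.83 apart (3.56-fold). These groups were chosen after the values had been seen, and no share of all probes with such a split is given. The change from end to end was 2.82 ± 0.92, and the adjusted p of 0.0957 in limma missed the threshold. It was 0.0403 without coronal fraction 10. Horizontal fractions 1 to 3 were the arrays with the slope out of range and fractions 4 to 6 those with the slope in range, so along this direction position and array quality cannot be told apart. With the signal of a107 as a covariate the change was 1.06 (adjusted p = 0.856).

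Along the sagittal series Calb2 was lowest in the outer fractions, with levels of -1.37, -0.36, 0.30, 1.04, 0.11 and -0.81 in fractions 1 to 6. Fraction 4 was the highest, 5.31-fold above fraction 1, and the 3 inner fractions 3 to 5 lay above fractions 1, 2 and 6 without overlap, with means 1.33 apart (2.51-fold). These groups were chosen after the values had been seen, so the lack of overlap followed from the choice. The curved term, the outer fractions minus the middle, was -1.68 ± 0.74 (adjusted p = 0.305 in limma), and the change from side to side was 0.60 ± 0.98 (adjusted p = 0.724). Thus a fall toward both sides was seen in the levels but was not called.

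Over all 22 fractions the highest level of Calb1 was in coronal fraction 2, that of Pvalb in coronal fraction 3 and that of Calb2 in coronal fraction 10. The levels of Calb1 in coronal fractions 2 and 3 did not differ beyond spot error, so its peak cannot be set apart from that of Pvalb. The lowest levels were in coronal fraction 10 for Calb1, in sagittal fraction 1 for Pvalb and in horizontal fraction 1 for Calb2. The range over all fractions was 16.6-fold for Calb2 and 30.1-fold for Pvalb. For Calb1 it was 11.8-fold in the levels as read, with the lowest level not well above background.

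The likeness of the profiles is given as Pearson's r without a test, since the points share arrays, scaling and animals. Over the 22 fractions r was 0.68 between Calb1 and Pvalb, -0.35 between Calb1 and Calb2 and 0.14 between Calb2 and Pvalb. The value of Calb1 and Calb2 rested on the ends of the range: it was 0.14 when the 2 fractions with the most extreme Calb1 levels were left out. Over the 10 coronal fractions the r of Calb1 and Calb2 was -0.71, whereas over the 6 horizontal and the 6 sagittal fractions it was 0.57 and 0.55. The coronal value rested largely on the same 2 fractions, coronal 2 and 10. There Calb1 was at -0.92 and -4.47 and Calb2 at -1.43 and 2.25. Between Calb1 and Pvalb r was 0.76, 0.83 and 0.10 over the coronal, horizontal and sagittal fractions, and between Calb2 and Pvalb it was -0.24, 0.83 and 0.63. With the spike-in a107, r over the 22 arrays was -0.65 for Calb2, 0.17 for Calb1 and -0.21 for Pvalb. Within the coronal, horizontal and sagittal series it was -0.46, -0.89 and -0.51 for Calb2, 0.39, -0.23 and 0.01 for Calb1, and 0.33, -0.64 and -0.91 for Pvalb. For the 15 arrays whose slope was accepted the r was -0.33 for Calb2, -0.30 for Calb1 and -0.15 for Pvalb.

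The levels were then set beside markers of the cells that could contain these proteins from lists of known genes. Purkinje cells were described by 8 markers, of which 7 entered the test, among them Pcp2, Car8, Itpr1, Ppp1r17, Rora and Pcp4. Along the coronal series 5 of the 7 fell and none rose. Pcp2, a Purkinje cell protein, was at 6.08, 6.46 and 6.70 in coronal fractions 1 to 3, at 4.67 in fraction 4 and between 0.02 and 1.40 in fractions 5 to 10. Ppp1r17, a phosphatase inhibitor of Purkinje cells, fell by 4.20 (adjusted p = 0.0216 in limma). Rora, a nuclear receptor that Purkinje cells require, fell by 1.95 ± 0.35 (adjusted p = 0.00608). Over the 10 coronal fractions the mean level of the list had an r of 0.83 with Calb1, 0.92 with Pvalb and -0.29 with Calb2. Over the 6 horizontal fractions these were 0.93, 0.90 and 0.70, and over the 6 sagittal fractions 0.34, 0.93 and 0.76, so that the value for Calb2 turned positive there. The sagittal 0.93 of Pvalb rested largely on fraction 1, an array with the slope out of range. There Pvalb was at -0.30 and the list at -0.15, against 0.99 to 1.37 for the list in fractions 2 to 6. Fraction 1 enters every other sagittal r of Pvalb as well.

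Granule cells of the cerebellum were described by 8 markers, of which 6 fell along the coronal series and none rose. Gabra6, the GABA receptor subunit of mature granule cells, was between -0.12 and 0.04 in coronal fractions 1 to 3, at -3.34 in fraction 4 and not well above background in fractions 5 to 10. Neurod1, a transcription factor of young granule neurons, fell by 4.98 ± 0.73, and Zic1, another transcription factor of this lineage, fell by 2.65 ± 0.68 (adjusted p of 0.00169 and 0.0247 in limma). Atoh1, the factor of granule cell precursors, was highest in coronal fraction 2 and was well above background on 17 arrays. The r of the mean level of the list over the coronal fractions was 0.85 with Calb1, 0.88 with Pvalb and -0.45 with Calb2. It was 0.93, 0.80 and 0.39 over the horizontal fractions and 0.71, 0.69 and 0.92 over the sagittal ones. The levels of Calb2, whose protein granule cells of the cerebellum contain, thus ran with these markers along the sagittal series and not along the coronal one.

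**Figure D3:**
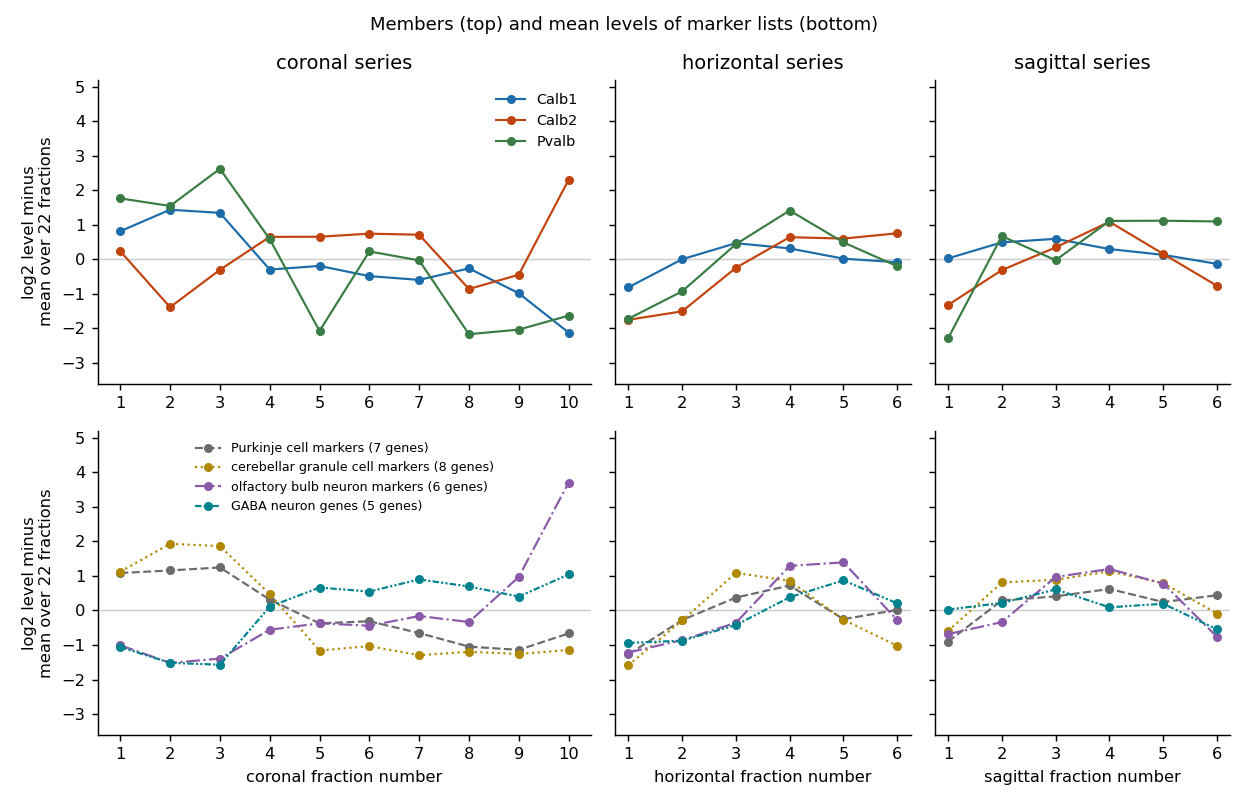
Level of Calb1, Calb2 and Pvalb (top) and mean level of 4 marker lists (bottom) against fraction number in the 3 series, each as log2 level minus its own mean over the 22 fractions, 1 array per point. Purkinje and cerebellar granule cell markers are high in coronal fractions 1 to 3 with Calb1 and Pvalb, and olfactory bulb markers peak in coronal fraction 10 with Calb2.

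Neurons of the olfactory bulb were described by 7 markers, of which 6 entered the test. Along the coronal series 5 of the 6 rose and none fell, though the straight term of Eomes, 0.73 ± 0.81, was smaller than its SE. The mean level of the 6 was between -1.61 and 0.88 in coronal fractions 1 to 9 and at 3.61 in fraction 10, the fraction in which Calb2 peaked. Cdhr1, a cadherin of mitral and tufted cells, was at 5.16 there and at 1.89 or below in the other coronal fractions. Tbx21, a transcription factor of the same cells, was at 2.87 there and at -1.18 or below in the others. Th, the dopamine synthesis enzyme found in other periglomerular cells, was highest there as well, at 4.54. Scgn, an EF-hand protein of bulb interneurons, was well above background on only 4 arrays, among them coronal fraction 10 at -1.68, and it was singled out after its values had been seen. Over the 22 fractions the mean level of the list had an r of 0.71 with Calb2, -0.55 with Calb1 and -0.18 with Pvalb. Within the coronal, horizontal and sagittal series it was 0.70, 0.80 and 0.93 with Calb2 and -0.89, 0.52 and 0.55 with Calb1. With Pvalb it was -0.61, 0.86 and 0.40. The coronal value of Calb2 rested largely on fraction 10. In fraction 9, where the list had its second highest coronal level of 0.88, Calb2 was at -0.49.

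All 5 genes of GABA neurons that were looked up entered the test. Along the coronal series 3 of them rose and none fell, and along the horizontal series 2 rose and none fell. Gad1 rose by 1.81 ± 0.36 and Gad2 by 1.33 ± 0.43 (adjusted p of 0.0116 and 0.0467 in limma). The mean level of the 5 had an r of -0.90 with Calb1 and -0.84 with Pvalb over the coronal fractions. With Calb2 it was 0.58. The relation turned round elsewhere: over the horizontal fractions r was 0.41 with Calb1, 0.76 with Pvalb and 0.92 with Calb2, and over the sagittal ones it was 0.87, -0.15 and 0.46. Although known as interneuron markers, Calb1 and Pvalb were highest in the 3 coronal fractions where these 5 genes were on average lowest, so the genes are called by their own names here.

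Of 14 genes of parvalbumin interneurons 13 were tested. Along the coronal series 3 rose (Cox6a2, Satb1 and Hapln1) and 1 fell, Syt2, the synaptotagmin of fast inhibitory terminals. The median fitted range of the list along the coronal series was 0.99, beside 0.99 for all probes tested. Syt2 was at -1.84, -2.36, -2.30 and -2.45 in coronal fractions 1 to 4 and was lower in all later ones, where it was not well above background in 4 of the 6. Kcnc1 and Kcnc2, the potassium channels of fast-spiking cells, did not pass in any direction. The mean level of the list varied between -0.27 and 0.54 over the coronal fractions, and its r with Pvalb was -0.34 over these 10 fractions, -0.18 over the horizontal and -0.73 over the sagittal ones.

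Of the 6 genes of somatostatin interneurons tested, 3 rose along the coronal series, Cort and Npy among them, and none fell. Of the 9 tested genes of calretinin and Vip interneurons, 5 rose there and none fell. The median fitted range of these 9 genes was 2.62, beside 0.99 for all probes tested. Sp8, a transcription factor of interneurons of the bulb and the cortex, rose by 7.34 ± 0.69 (adjusted p = 0.000146 in limma), and Htr3a, the serotonin receptor channel of these interneurons, rose by 1.90 ± 0.53 (adjusted p = 0.0119). Vip rose by 2.58 ± 0.53 (adjusted p = 0.00898), with its highest coronal level in fraction 9. Over the coronal fractions the mean level of the 9 had an r of 0.60 with Calb2, and over the horizontal and sagittal ones it was 0.61 and 0.39. For the 6 somatostatin interneuron genes the r with Calb2 was 0.57, 0.74 and -0.92 over the coronal, horizontal and sagittal fractions.

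Muscle was looked at because Pvalb is also expressed there. Ckm, the creatine kinase of muscle, was not well above background on any array, and Mylpf, the light chain of fast myosin, was so on 4 of 22 arrays. Of the 7 markers tested, 3 rose along the coronal series (Myh3, Myh8 and Acta1) and 1 fell, Tnnc2, a troponin of fast muscle. The mean level of the 7 was between -2.73 and -1.76 over the coronal fractions, -2.39 and -1.58 over the horizontal ones and -2.53 and -1.81 over the sagittal ones. Its r with Pvalb was -0.11, -0.79 and -0.46. Among single markers Tnnt3, another fast troponin, had an r of 0.87 with Pvalb over the coronal fractions, and Acta1, skeletal actin, had one of -0.77. The part of muscle in the levels of Pvalb was not tested.

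Sensory ganglia hold parvalbumin as well. Of 7 ganglion markers 5 entered the test, and 2 of them fell along the coronal series, Pou4f1 and Prph, while none rose. Avil was not well above background on any array and Pirt was so on 2. The mean level of the 5 was between -3.73 and -1.98 over the coronal fractions, and its r with Pvalb was 0.46 there, 0.55 over the horizontal and 0.77 over the sagittal fractions. Hindbrain genes fell in all 5 of 5 cases, and their mean level had an r of 0.73 with Pvalb and 0.71 with Calb1 over the coronal fractions, 0.52 and 0.08 over the horizontal ones and 0.70 and 0.77 over the sagittal ones. The parts of ganglia and of hindbrain nuclei in the levels of Calb1 and Pvalb were not tested.

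The other families of EF-hand proteins did not share a single direction along the coronal series. S100g, a small vitamin D dependent calbindin, was well above background on 15 arrays and fell, with levels of -2.84, -2.83, -3.33 and -4.09 in coronal fractions 1 to 4 and none well above background in fractions 5 to 10 (adjusted p = 0.00835 in limma). Ocm, the parvalbumin paralog oncomodulin, did not pass along the coronal series but fell along the horizontal one by 1.93 ± 0.44 (adjusted p = 0.0405). It was highest in horizontal fraction 1 and sagittal fraction 6, at -0.13 and 0.11, where Pvalb was at 0.26 and 3.08.

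Calmodulins, which carry calcium signals to enzymes in all cells, had the smallest median fitted range of the EF-hand families looked up. The median fitted range of 4 calmodulin genes along the coronal series was 0.57, beside 0.99 for all probes tested. Of 7 neuronal calcium sensors, relatives of recoverin that bind membranes on calcium entry, 3 rose (Hpcal4, Ncald and Hpca) and 1 fell (Hpcal1). Hpcal4 rose by 2.58 ± 0.63 and Hpcal1 fell by 1.43 ± 0.32 (adjusted p of 0.0180 and 0.00800 in limma). Of 4 Kv channel-interacting proteins, which regulate A-type potassium channels, 1 rose, Kcnip2 by 3.02 ± 0.59 (adjusted p = 0.00952).

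Of 5 tested Necab and Cabp genes, neuronal EF-hand proteins, 2 rose (Necab1 and Caln1) and 1 fell (Necab3). Necab1 rose by 3.22 ± 0.61 and Necab3 fell by 1.84 ± 0.38 (adjusted p of 0.00547 and 0.0124 in limma). Of 5 S100 proteins 1 fell along the coronal series, S100b, the S100 protein of astrocytes and other glia, by 3.00 ± 0.31 (adjusted p = 0.000207). S100b was at 6.15, 5.12 and 5.54 in coronal fractions 1 to 3, the fractions in which Calb1 and Pvalb were highest, and between 2.74 and 4.58 in the later ones. From side to side of the sagittal series 4 of the 5 S100 genes rose, S100a10 by 1.73 ± 0.43 among them (adjusted p = 0.0187). All 4 were highest in sagittal fraction 6, where the mean level of the 5 bone and blood markers was 2.14, against -1.89 to 0.46 in the other sagittal fractions. The part of bone and blood in these S100 levels was not tested.

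Of the other lists that mark regions, 4 of 7 striatal markers and 1 of 6 hypothalamic markers rose along the coronal series, while 3 of 6 thalamic markers fell and 1 rose. By sign, Tcf7l2 is counted as falling (-0.64 ± 0.97) and Lef1 as rising (0.68 ± 0.34), but both were highest in coronal fraction 6. Rora, another of the 3, is also on the Purkinje cell list. Among 4 tested dentate granule cell markers 1 rose and 1 fell, and among 4 of olfactory sensory neurons 2 rose and none fell. Of 5 bone and blood markers 1 fell. The thalamic list, whose mean level was highest in coronal fraction 6 at 1.01, had an r over the 22 fractions of 0.62 with Calb2, 0.48 with Pvalb and 0.25 with Calb1. Within the coronal, horizontal and sagittal series it was 0.29, 0.91 and 0.92 with Calb2, 0.28, 0.98 and 0.70 with Pvalb, and 0.17, 0.82 and 0.72 with Calb1. Over the horizontal fractions the r of Calb2 and Pvalb was thus higher with thalamic markers than with those of Purkinje cells or the bulb. For the striatal list r was 0.01, 0.98 and -0.69 with Calb2, -0.59, 0.86 and -0.23 with Pvalb, and -0.49, 0.54 and -0.01 with Calb1. For the hypothalamic list r was 0.36, 0.57 and 0.88 with Calb2, -0.31, 0.02 and 0.82 with Pvalb, and -0.46, -0.14 and 0.52 with Calb1. For the dentate list it was 0.31, 0.83 and 0.55 with Calb2, 0.12, 0.84 and -0.02 with Pvalb, and -0.03, 0.86 and 0.93 with Calb1. The levels of the 3 genes therefore ran with the markers of several regions at once along the horizontal series.

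The genes most like each of the 3 were found among 16690 others by r over the 22 fractions. For Calb1 they were Krt28 (0.92), a keratin of the hair root, Sftpc (0.89), the surfactant protein C of the lung, St18 (0.88), a zinc finger transcription factor, Skor1 (0.88), a transcriptional corepressor, and Recql4 (0.88), a DNA helicase. All 5 were highest in coronal fraction 2, as Calb1 was, but they had been picked by an r that includes this fraction. St18 was at -0.96, 0.41 and 0.17 in coronal fractions 1 to 3 and had an r of 0.90, 0.93 and 0.93 with Calb1 within the coronal, horizontal and sagittal series. Sftpc was like Calb1 along the coronal and horizontal series (0.96 and 0.82) and ran against it along the sagittal one (-0.71). The least like genes were Rpp25 (-0.90), H3c15 (-0.89) and Myh8 (-0.88). Rpp25, a protein of ribonuclease P, was highest in coronal fraction 10, where Calb1 was not well above background.

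For Pvalb the most like genes were Rdh5 (0.92), a retinol dehydrogenase, Sapcd2 (0.92), a regulator of spindle orientation, Mia (0.92), a secreted protein known from cartilage, Chrdl2 (0.90), a secreted inhibitor of bone morphogenetic proteins, and Hpdl (0.89), a mitochondrial enzyme. All 5 were highest in coronal fraction 3, as Pvalb was, but the r by which they were picked includes this fraction. All 5 were lower in coronal fraction 5 than in fractions 4 and 6, as 31.3% of all probes were, and they had been picked by an r that includes fraction 5. Mia was at 3.56, 2.37 and 3.07 in fractions 4, 5 and 6, and Chrdl2 was at -2.10, -4.06 and -3.02. The steps of all 5 were smaller than the 2.30 of Pvalb. Without any single fraction the r of these 5 genes with Pvalb stayed between 0.88 and 0.94. The least like genes were Snx7 (-0.82), Grk5 (-0.81) and Sla (-0.81). The value of Grk5 depended on the scaling and was -0.39 with median centring and -0.55 with quantile normalization. Sla, an adaptor of receptor signalling, was at -0.71, -0.50 and -0.56 in coronal fractions 1 to 3 and at 3.00 in fraction 9.

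For Calb2 they were Insyn2b (0.90), of a family of inhibitory synapse proteins, Wnt10a (0.90), a secreted signalling protein, Lbhd2 (0.89), Kctd12 (0.88), an auxiliary subunit of GABA-B receptors, and Kcnd3 (0.88), an A-type potassium channel. Of these 5, 4 were highest in coronal fraction 10 as Calb2 was, and Kcnd3 was highest in coronal fraction 5, at 3.46 against 3.34 in fraction 10. The r by which the 5 were picked includes fraction 10. Within the sagittal series Wnt10a, Lbhd2, Insyn2b and Kcnd3 had an r between 0.91 and 0.94 with Calb2, and Kctd12 had one of 0.81. The least like genes were Dnaaf1 (-0.85), BB031773 (-0.84) and Tgm4 (-0.84), which were well above background on only 10, 11 and 12 of the 22 arrays. After the signal of a107 was regressed out of every gene, the r of the 5 most like genes was between 0.78 and 0.85.

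**Figure D4:**
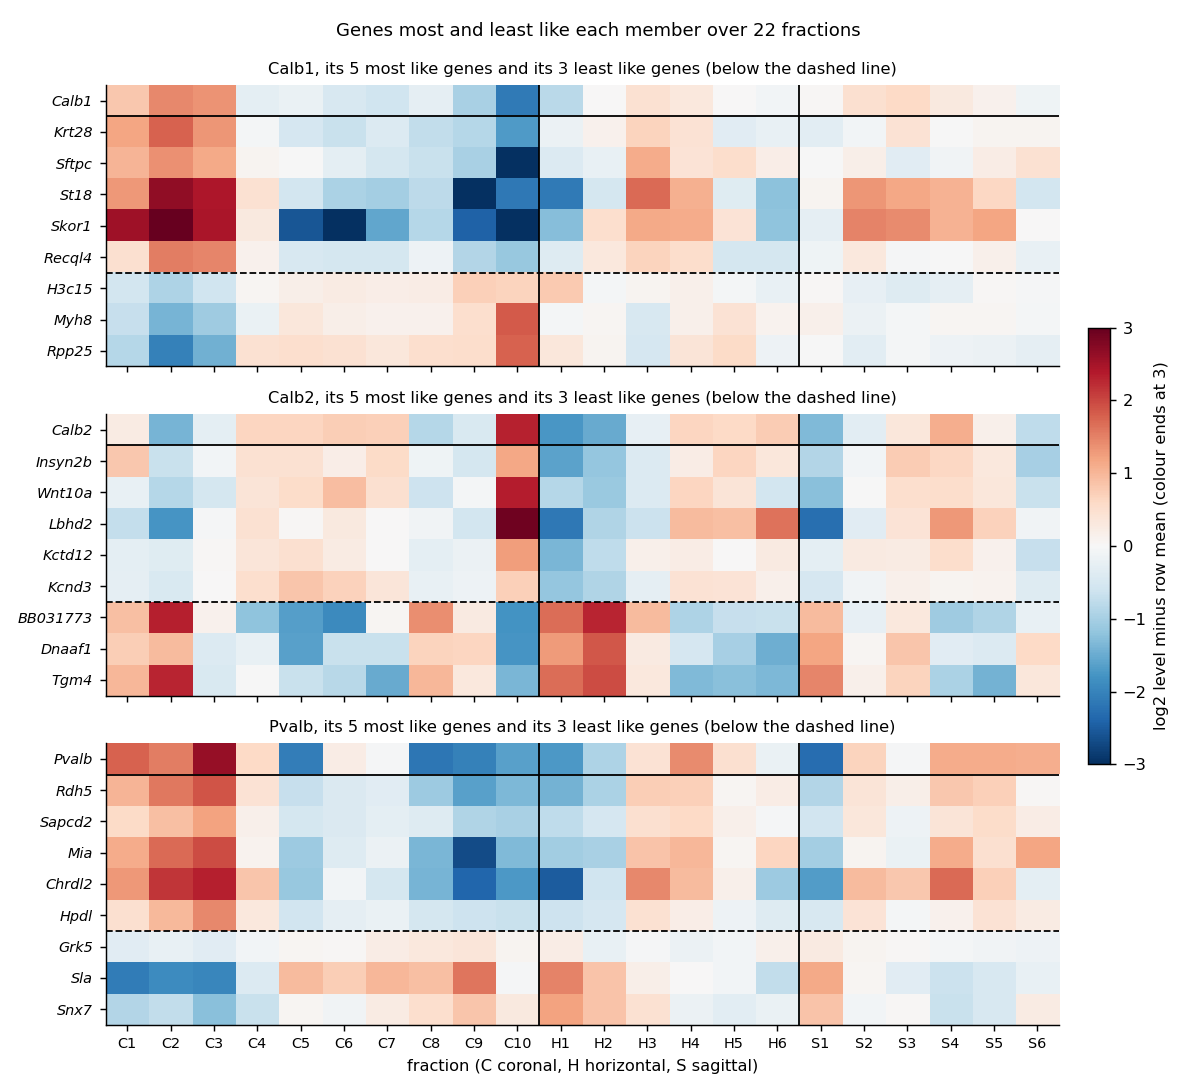
Log2 level minus the row's mean over the 22 fractions, as colour, for each of Calb1, Calb2 and Pvalb, its 5 most like genes and its 3 least like genes, with the fractions of the 3 series in columns. The most like rows under Calb1 and Pvalb are red in coronal fractions 1 to 3, and those under Calb2 are red in coronal fraction 10 and blue in horizontal fractions 1 and 2. The rows were picked by r over these same fractions.

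The coronal calls of Calb1 and Pvalb held when any 1 of the 22 fractions was left out, with adjusted p between 0.000613 and 0.00934 for Calb1 and between 0.00421 and 0.0307 for Pvalb. The coronal test of Calb2 was not passed under any of these, with adjusted p between 0.131 and 0.521. Between the means of the 3 series the genes differed by at most 0.37 (Calb1), 0.48 (Calb2) and 0.40 (Pvalb) on the log2 scale, with adjusted p of 0.884, 0.866 and 0.947 in limma.

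**Figure D5:**
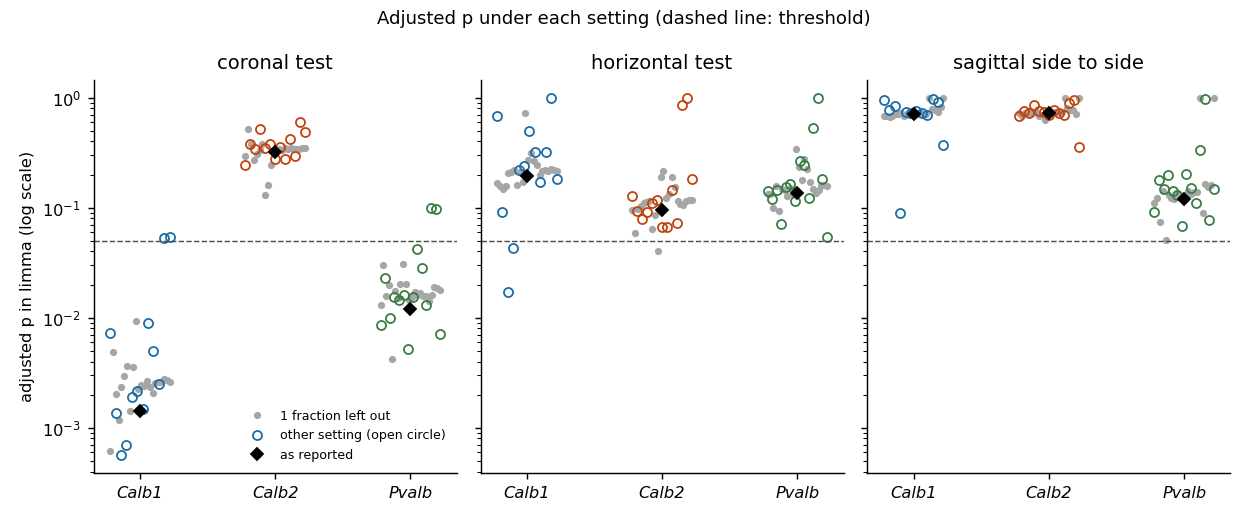
Adjusted p in limma (log axis) of Calb1, Calb2 and Pvalb for the coronal, horizontal and sagittal side to side tests, as reported (diamond), with 1 fraction left out (grey points) and under the other settings (open circles), with the threshold as a dashed line. Calb1 and Pvalb lie below the line in the coronal test with 2 open circles each above it, and Calb2 lies above it.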

How the data were processed

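RNA of each fraction was labelled with 1 dye and hybridised to a SurePrint G3 mouse array. Per the file headers, the authors scanned the arrays and extracted spot intensity with Agilent Feature Extraction 10.10.1.1, which subtracts background to give the processed intensity; the array design used the mm9 build. The authors' deposited table gave log2 values of 47544 probes, and 99.9% of its values were within 0.02 of the log2 values computed here, over the 47478 probes in both. No authors' columns of comparisons were used.

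Groups were the slicing directions in the labels. Control and outlier spots were left out, repeated spots were averaged, and 55600 probes with a value on every array were scaled to the 75th percentile. Of these, 39621 were well above background in at least 1 fraction of every series and were tested, without a pseudocount. A gene was represented by the RefSeq-matched probe with the highest median level. limma 3.58.1 in R 4.3.3 fitted linear and quadratic terms beside the intercept of each series (13 residual degrees of freedom), and was tested on simulated data. Spot error was taken from the 30 repeated probes nearest in brightness on the array. With 1 array per fraction and 1 mouse per series, p-values measure the scatter around the curves, and array number limits the precision.

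The 3 genes and the 22 gene lists were chosen with earlier results of these data known. Named are the 3 genes, up to 4 genes per list and series with the largest fitted range among those past the threshold, and for each gene the 5 others with the highest and the 3 with the lowest r; others are marked in the text as chosen later or stand as markers of their list. Mean spot signals were not in the files used, so normexp (offset 50) used median signals. Python 3.11.15 was used for the rest. A few genes that this rule names are not reported here.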

Additional observations from a re-analysis of the deposited data

Results flagged for a closer look

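The level of Pvalb in sagittal fraction 1, -0.30, lay apart from the other 5 sagittal fractions, which were between 1.96 and 3.10. The gap to the nearest of them was 0.664 of the whole range, above Dixon's critical value of 0.625 for 6 values. It was 1 of 9 combinations of gene and series examined, and chance flags about 1 in 20. The spike-in slope of this array was out of range (0.773), and its part in the low value was not tested.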

How the results depend on the processing

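The coronal change of Calb1 and Pvalb was negative under every setting tried. With only arrays in the spike-in range, adjusted p was 0.0533 for Calb1 and 0.0983 for Pvalb, and with the coronal series fitted alone 0.0538 and 0.0979, where fewer arrays set the spread. Along the horizontal series Calb1 passed with quantile normalization (0.0171) and without scaling (0.0428), and Calb2 without coronal fraction 10 (0.0403). Leaving out 1 fraction at a time gave 0.0403 to 0.214 for Calb2 there. The causes were not tested. No other test of the 3 genes changed its call. Calb1 was not tested among probes detected on all 22 arrays. No paired analysis was possible because fraction numbers are positions along different axes of different mice.

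Genes with r above 0.85 numbered 20 for Calb1, 20 for Calb2 and 33 for Pvalb. With quantile normalization these were 63, 55 and 57, with median centring 109 for Calb2 and 52 for Pvalb, and with a107 regressed out 2 for Calb2 (1 of the 20 shared) and 87 for Pvalb. Without single fractions they ranged from 7 to 135, 11 to 73 and 14 to 75. For Calb1 they were 7, 9, 12 and 135 without coronal fractions 2, 3, 9 and 10. For Calb2 they were 13 and 73 without coronal fractions 2 and 10, and 11 and 13 without horizontal fractions 1 and 2. For Pvalb they were 14, 51, 75, 55 and 21 without coronal fractions 3, 5, 6, 7 and 9, and 63 without sagittal fraction 6.

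Over all probes 7850 passed along the coronal series (634 with that series alone to 9211 with normexp, and 4869 and 10710 without coronal fractions 6 and 1), 2604 along the horizontal (0 alone, 9 without horizontal fraction 1, 6529 without coronal fraction 2), 4045 from side to side (0 alone and without sagittal fraction 1, 6264 with normexp), 12 for the sagittal middle (0 with median centring to 909 with normexp) and 3 between series means (0 with median centring to 1232 without scaling). The spot SD of Calb1, a limit on what its levels resolve, was up to 0.49.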
